A study of Mus musculus with 16 samples.

Results

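The genotype by diet interaction in mouse liver was the difference between 2 differences: the log2 ratio of knockout to control livers on a high-fat diet minus the same log2 ratio on normal chow. It was estimated for each of 14351 genes, which is the number that passed the filter on low counts out of 53801 in the deposited table. All 16 livers entered, 4 in each of 4 groups named by their sample titles. An interaction of 1 on the log2 scale means that the knockout to control ratio was 2-fold larger on the high-fat diet than on chow. A value of 0 means the same ratio on both diets.

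Degs1 encodes dihydroceramide desaturase 1, which makes the last step of ceramide synthesis by placing a double bond in dihydroceramide. Ceramides are sphingolipids of the cell membrane, and in the liver they are known for their links with fat storage, insulin action and inflammation. Feeding fat raises the supply of the fatty acids from which sphingolipids are built, so a diet by genotype design asks whether losing the enzyme matters differently on chow and on fat. An interferon response, which recurs below, is a set of genes that cells switch on together when interferons or related danger signals reach them, and matrix genes such as the collagens are made in the liver mainly by stellate cells.

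The groups were control mice on normal chow, liver-specific Degs1 knockout mice on normal chow, control mice on a high-fat diet and liver-specific Degs1 knockout mice on a high-fat diet. Total RNA from whole liver was sequenced after depletion of ribosomal RNA, with a strand-specific kit, so transcripts without a poly(A) tail were counted too. The sources used here do not give the driver of the deletion, the controls' alleles, the background strain, the age or the time on diet, and no label gives the sex. Xist was at most 0.27 CPM and the Y-linked Ddx3y was at 65.9 to 134.5 CPM in all 16 livers, the pattern of male mice. Every liver carries its own animal number, and these numbers separate the 4 groups, so litter or cohort cannot be told apart from group. Because the tissue is a mixture, fewer cells of a type and less RNA per cell cannot be told apart in any value below.

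Libraries held between 11938596 and 23250885 counts. The labelled tissue matched its defining markers: 6 hepatocyte markers summed to between 54019 and 130510 CPM (counts scaled to a common library size) in every liver, and pancreas markers stayed below 1 CPM. The 5 adipocyte markers summed to at most 4.01 CPM on chow, to 2.57 to 13.3 CPM in high-fat controls and to 1.22 to 54.3 CPM in high-fat knockouts. The highest of them was Cidec, which fatty hepatocytes also express, at up to 50.7 CPM in high-fat knockouts, and Adipoq reached 6.58 CPM there while it was at 0 in 2 of the 4 livers. The part of fat cells in the results was not tested. On chow that hepatocyte sum ranged from 99585 to 117088 CPM for controls and from 109476 to 130510 for knockouts. Under the high-fat diet the ranges were 70615 to 104611 CPM for controls and 54019 to 74000.3 for knockouts. High-fat control 3 stood apart from the other livers. It held the highest value of all livers for 2863 of the 14351 genes and lay at one end of principal components 1 and 2. Chow knockout 3 had counts on 31083 genes, against 16510 to 21094 in the others. Another measure also differed between the groups: the share of counts on sense-intronic and unclassified genes, called the unspliced share below. Unspliced RNA was not measured directly, and the source of the difference was not tested. It averaged 0.0346% for controls and 0.0664% for knockouts on chow, and 0.0901% for controls and 0.171% for knockouts on the high-fat diet. Among high-fat controls this share ranged from 0.0218% in high-fat control 3, the lowest of all livers, to 0.164% in high-fat control 1. High-fat knockouts had 0.162% to 0.191%. Many of the values that 1 liver moved by more than 1.5 times are given with and without it.

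Degs1 (chr1:182275772-182282804, GRCm38) was low in the knockout livers on both diets. Chow controls had 85.5, 80.4, 87.9 and 84.9 CPM and chow knockouts 39.3, 39.3, 37.4 and 35.9 CPM. High-fat controls had 60.2, 62.2, 101 and 70.3 CPM and high-fat knockouts 41.6, 28.1, 26.1 and 29.2 CPM. The knockouts lay below the controls on each diet without overlap, and Degs1 fell by 1.16 on the log2 scale on chow (edgeR adjusted p = 0.0123) and by 1.23 on the high-fat diet (edgeR adjusted p = 0.00376). Its interaction was -0.07 (SE 0.23, 95% confidence interval -0.56 to 0.41, edgeR adjusted p = 0.929). The remaining transcript was counted over the whole gene and in whole tissue, so it does not measure the deleted fraction of hepatocytes. The sign of this small interaction was not stable, and without high-fat control 3 it was 0.12.

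No gene passed the 0.05 threshold for the interaction after Benjamini-Hochberg adjustment in edgeR's quasi-likelihood test (0 of 14351 genes, 0% of those tested). The smallest adjusted p was 0.211, shared by the leading genes, and 142 genes had an adjusted p below 0.25. At an unadjusted p under 0.05 there were 1615 genes: 770 with a positive interaction (5.37% of those tested) and 845 with a negative one (5.89%). DESeq2 called 71 genes, limma-voom 0 and limma-voom with quality weights 9, and all 9 were among the 71. The 9 were Uba7, Oasl1 and Lgals3bp with positive values and Fbxo30, Rnf2, Syncrip, Arhgap5, Mier3 and Pdik1l with negative ones, a set named here because it is the whole call. The median standard error of an interaction was 0.32. Every gene named below is therefore described by its values and its place in the order, not as a called difference.

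The simple effects behind the contrast were called at very different rates. The knockout effect on chow passed for 2 genes (0.0139% of those tested), Degs1 and Srebf1. On the high-fat diet it passed for 16 genes (0.111%), 9 up and 7 down, including Col1a1, Col1a2, Col5a2, Adamts2, Phlda3, Gstm3 and Rnf213 among those that rose and Mup11, Mup15 and Cyp2c37 among those that fell. The effect of the high-fat diet passed for 262 genes in controls (1.83%) and for 1516 in knockouts (10.6%), of which 748 rose and 768 fell. These counts are not themselves a test of a difference between diets or genotypes, which is the interaction. Leaving out high-fat control 3 raised the last pair of counts to 955 and 2914, while leaving out chow control 2 lowered the first of them to 100 and leaving out high-fat knockout 2 lowered the second to 465. With single livers left out, the knockout calls ranged from 0 to 4 on chow, and on the high-fat diet from 3 without high-fat knockout 2 to 31 without high-fat knockout 4. Adding the unspliced share as a term of the fit left 0 knockout calls on both diets and gave diet calls of 1157 in controls and 873 in knockouts, the reverse of their order without it. Degs1, the deleted gene, was then not called either. On chow the share was 0.0263% to 0.0411% in controls and 0.0463% to 0.0878% in knockouts, without overlap. It thus moved with the groups, and this fit cannot tell the share and the group apart.

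Across genes the knockout effects on the 2 diets, which share no liver, had a Pearson r of 0.34 over 14351 genes, which are not independent of one another. The median size of the effect was 0.20 on chow and 0.30 on the high-fat diet. The effects had opposite signs for 40.5% of all genes, for 688 of the 770 positive genes and for 745 of the 845 negative ones; a gene with a large difference of effects tends to have them on opposite sides, so those shares describe the genes and test nothing. In 36 genes the knockouts lay wholly on one side of the controls on chow and wholly on the other side on the high-fat diet. Those were 11 genes with positive and 25 with negative interactions. For single diets, the 4 knockouts lay above the 4 controls for 494 genes on chow (3.44%) and 784 on the high-fat diet (5.46%), and below them for 416 (2.90%) and 1116 (7.78%).

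**Figure D1:**
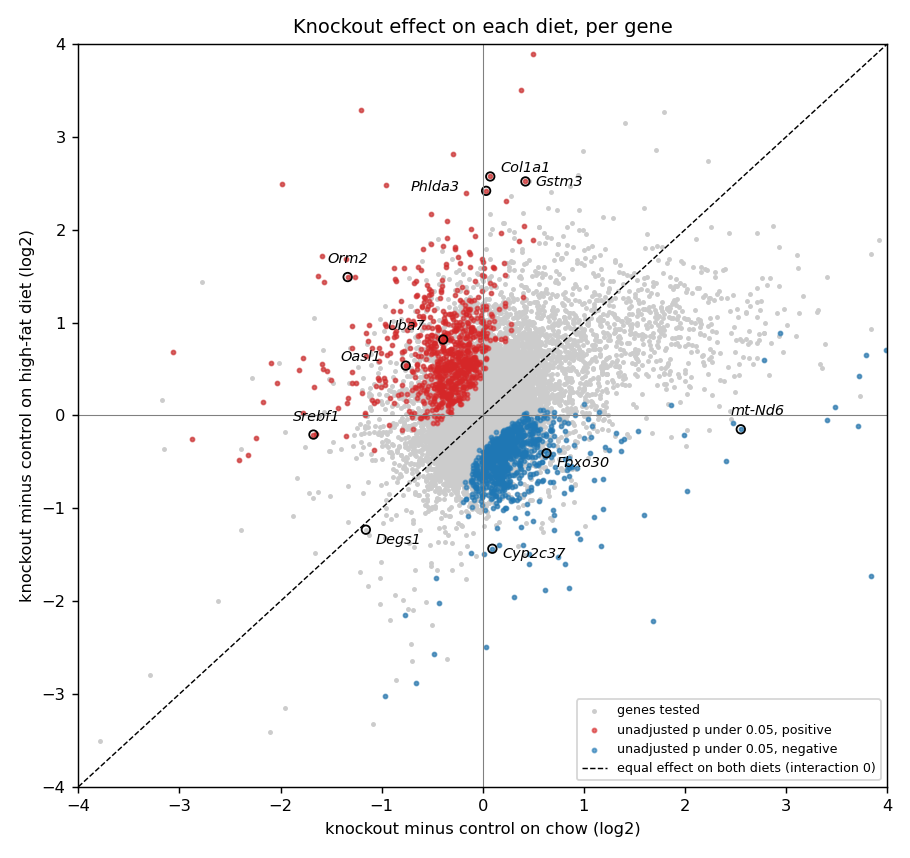
Each point is 1 of the genes tested, with the knockout minus control log2 difference on chow on the x axis and on the high-fat diet on the y axis; 9 genes lie outside the plotted range. Genes with an unadjusted interaction p under 0.05 are coloured, the dashed line marks equal effects on both diets, and Degs1 sits on that line at about equal negative values while Uba7 and Oasl1 lie in the upper left quadrant and Fbxo30 in the lower right.

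The leading positive genes included several known from the interferon response. Uba7 (chr9:107975505-107984060), the enzyme that activates the ubiquitin-like protein ISG15 for conjugation, had the smallest p among positive genes. Its chow values were 16.5, 11.9, 12.9 and 11.9 CPM in controls and 8.97, 9.6, 12.2 and 9.7 in knockouts. Under the high-fat diet they were 10.9, 13.3, 14.9 and 16.5 CPM in controls and 22.7, 24.8, 27.1 and 23.5 in knockouts. The knockouts overlapped the controls on chow and lay wholly above them on the high-fat diet, with an interaction of 1.21 (SE 0.22, unadjusted p = 4.27e-05, edgeR adjusted p = 0.211). In knockouts Uba7 rose by 1.27 on the log2 scale from chow to high-fat diet (edgeR adjusted p = 0.000524), while in controls the difference was 0.07.

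Oasl1, an interferon-induced member of the oligoadenylate synthetase family, showed a different arrangement. Chow controls had 22.3, 16.1, 18.4 and 14 CPM and chow knockouts 10.4, 9.65, 10.9 and 10.7, so the knockouts were the lower group without overlap. On the high-fat diet the controls had 13.6, 11, 11.5 and 16.5 CPM and the knockouts 15.5, 23.6, 19.1 and 18.1, with overlap. Its interaction was 1.30 (SE 0.25). Parp10, which attaches single ADP-ribose units to proteins, had an interaction of 1.23, Rnf213, a giant ubiquitin ligase, had 1.02, and Ikbke, a kinase of innate immune signalling, had 1.12. For these 3 genes the knockouts lay wholly above the controls on the high-fat diet and overlapped them on chow. Rnf213 had 273, 298, 202 and 301 CPM in high-fat controls and 421, 541, 532 and 519 in high-fat knockouts, and its rise there passed the test (0.91, edgeR adjusted p = 0.0257).

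Collagen genes were also among the leading positive genes. Col1a1 (chr11:94936224-94953042), the main chain of type I collagen, had 7.12, 12.3, 4.57 and 9.65 CPM in chow controls and 10.9, 7.4, 7.91 and 9.22 in chow knockouts. It had 5.9, 7.96, 8.8 and 9.65 CPM in high-fat controls and 66.5, 53.6, 56 and 16.5 in high-fat knockouts. Only the high-fat knockouts stood out, and 1 of them, replicate 4, was far below the other 3 while still above every control. The interaction was 2.499 (SE 0.48, edgeR adjusted p = 0.211). Without that liver it was 2.77 and passed (edgeR adjusted p = 0.0073). Col5a2, a chain of type V collagen, had an interaction of 1.59 and Adamts2, which trims procollagen, had 1.27; both rose with knockout on the high-fat diet, by 1.38 and 1.15 on the log2 scale.

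Csf1, the growth factor that keeps macrophages alive, was 1 of the genes whose order flipped. Chow controls had 10.03, 10.7, 12.5 and 12.3 CPM and chow knockouts 6.73, 9.24, 8.46 and 8.67. High-fat controls had 9.7, 7.2, 6.77 and 7.5 CPM and high-fat knockouts 11.9, 12.4, 14.6 and 10.7. The knockouts were below every control on chow and above every control on the high-fat diet (interaction 1.13, SE 0.23). Igsf8, an immunoglobulin-family membrane protein, flipped in the same way with an interaction of 1.12. Gstm3, a glutathione transferase, differed in its shape: high-fat controls fell to 8.27, 18.2, 16.7 and 9.65 CPM from 41, 45, 25 and 41.6 on chow, a log2 change of -1.53 (edgeR adjusted p = 0.0162). Its knockouts had 45.6, 37.9, 54.1 and 66.6 CPM on chow and 121, 72.2, 39.6 and 69 on the high-fat diet. The interaction of 2.10 (SE 0.43) therefore came with a fall in controls that the knockouts did not show. Cygb, a globin known from stellate cells, had an interaction of 1.03 and Phldb1, a pleckstrin-domain protein, had 1.26.

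**Figure D2:**
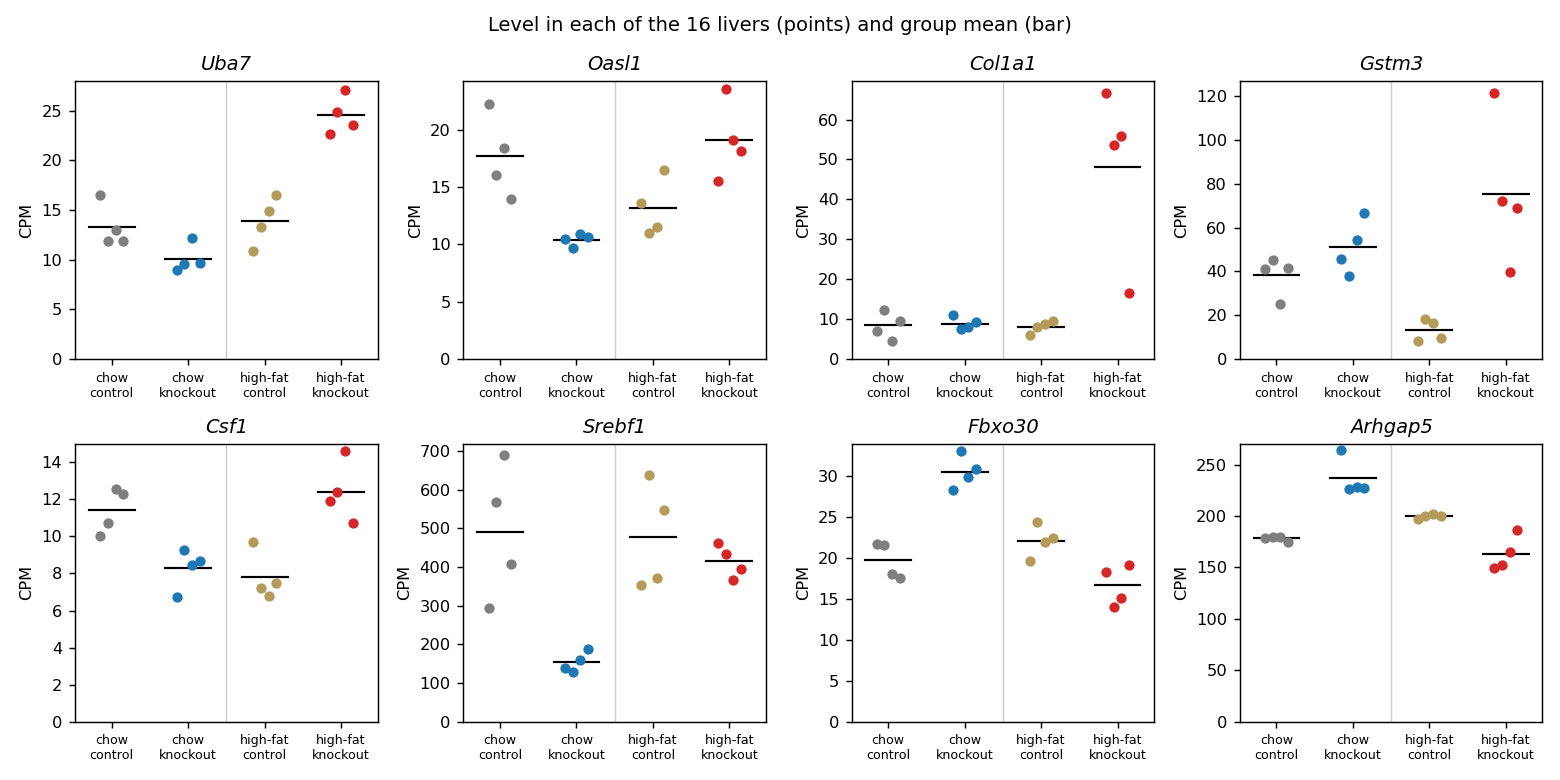
Each panel plots the CPM of 1 gene in each of the 16 livers as points, with the group mean as a bar and a linear y axis from 0. Uba7 and Col1a1 are high only in the high-fat knockouts, Csf1 and Fbxo30 change order between the diets, and Srebf1 is low only in the chow knockouts.

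The 12 leading negative genes had varied roles. Fbxo30 (chr10:11281330-11298052), the substrate-binding part of a ubiquitin ligase, had the smallest p of all 14351 genes (3.17e-05, edgeR adjusted p = 0.211). It had 21.7, 21.6, 18.1 and 17.5 CPM in chow controls and 28.3, 33.1, 29.9 and 30.9 in chow knockouts. On the high-fat diet the values were 19.6, 24.4, 22 and 22.5 in controls and 18.3, 14.1, 15.2 and 19.2 in knockouts. The knockouts were above every control on chow and below every control on the high-fat diet, and the interaction was -1.04 (SE 0.19). Its change from chow to high-fat diet in knockouts passed the test, at -0.87 (edgeR adjusted p = 0.00169), against 0.17 in controls.

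Arhgap5, a GTPase-activating protein, showed the same flip with little spread. Chow controls had 179, 179.9, 180.1 and 175 CPM and chow knockouts 265, 226, 228 and 228. High-fat controls had 198, 200.5, 202 and 199.9 CPM and high-fat knockouts 149, 153, 165 and 186. Its interaction was -0.70 (SE 0.15). The same order held without overlap for Syncrip, an RNA-binding protein (-0.81), the kinase gene Pdik1l (-0.90), the transcription factor gene Gpbp1 (-0.80), the co-chaperone Ptges3 (-0.95) and the small membrane protein gene Smim13 (-0.86). Rnf2, the ubiquitin ligase of Polycomb complexes, had -0.90, C1galt1, which builds O-linked glycans, had -0.81, and Naa50, an N-terminal acetyltransferase, had -0.75. Zfp748, a zinc-finger gene, had -1.11. In these 4 the groups overlapped on 1 of the diets. Cyp2c37, a cytochrome P450, was the exception in shape: its chow groups overlapped, with a knockout effect of 0.09, and on the high-fat diet it fell from 338, 267, 531 and 471 CPM in controls to 96.1, 132, 205 and 161 in knockouts (-1.44, edgeR adjusted p = 0.0398).

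The direction of the interaction moved with the base composition of the transcript. Of the 14351 genes, 14336 had a GC content from their longest annotated transcript, with a median of 49.0%. The median was 54.1% in the 770 positive genes and 42.1% in the 845 negative ones. Among the 12 leading genes in each direction it was 55.5% and 39.9%. In the 1116 genes under 40% GC the median interaction was -0.38, and 21.2% of them were negative at an unadjusted p under 0.05 against 0.538% positive. In the 2322 genes from 55 to 60% GC the median interaction was 0.22, with 12.02% positive and 1.08% negative. Over all genes with a value, the Pearson r with GC content was 0.34 for the interaction, -0.33 for the knockout effect on chow and 0.06 for the knockout effect on the high-fat diet. The dependence was thus seen in the chow comparison. The slope of log2 level on GC content, per 10 percentage points and relative to the mean of all livers, ranged from 0.04 to 0.22 for the 4 controls and from -0.14 to 0.02 for the 4 knockouts on chow. On the high-fat diet it ranged from -0.11 to 0.00 for controls and from -0.07 to 0.02 for knockouts. All 4 chow controls thus had a higher slope than any other liver.

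A fit with offsets for transcript length and GC content took this dependence into account. It called 0 genes, with a smallest edgeR adjusted p of 0.458, and it moved the split at an unadjusted p under 0.05 from 770 positive and 845 negative to 391 and 993. The 24 leading genes kept their sign. Under the offsets Uba7 had 0.89, Oasl1 1.04, Col1a1 1.98, Rnf213 0.63, Fbxo30 -0.97, Rnf2 -0.78 and Arhgap5 -0.78. The scaling of the libraries moved the split as well: upper-quartile scaling gave 929 positive and 663 negative genes, and library totals alone gave 1667 and 232, with the median of all genes shifted by 0.22. Over all genes the median was -0.12 under the length and GC offsets, 0.22 with library totals and -0.01 in the main fit. List values below are to be read against those shifts.

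**Figure D3:**
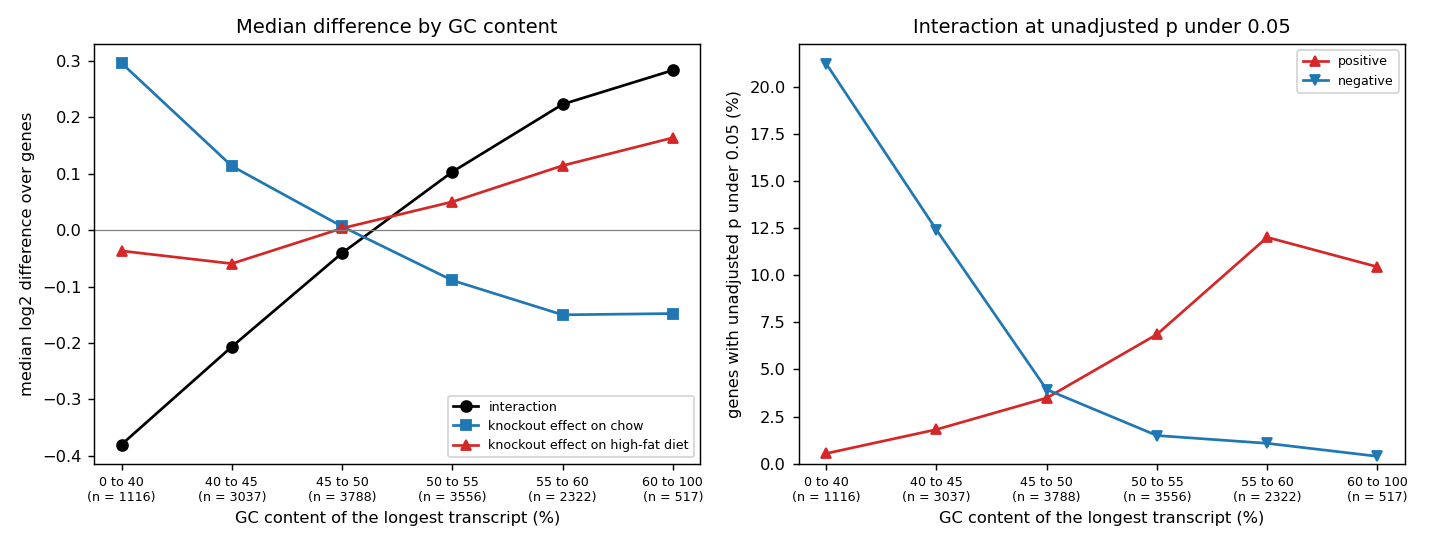
The left panel plots the median log2 difference over genes in 6 bins of transcript GC content for the interaction and for the knockout effect on each diet; the right panel plots the percent of genes in each bin with an unadjusted interaction p under 0.05, split by sign. The interaction climbs from -0.38 in the lowest bin to 0.28 in the highest, and the knockout effect on chow runs the other way, from 0.30 to -0.15.

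Gene lists were then described by how many tested members lay in each direction. The shares over all genes tested, against which these counts are to be read, were 49.4% with a positive interaction, 5.37% positive and 5.89% negative at an unadjusted p under 0.05, and 5.46% with knockouts above and 7.78% with knockouts below the controls on the high-fat diet. The interferon response list held 36 tested genes, all 36 with a positive interaction and a median of 0.95, against a median of -0.01 over all genes. At an unadjusted p under 0.05, 22 were positive and 0 negative. The median knockout effect was -0.16 on chow and 0.80 on the high-fat diet, where the 4 knockouts lay above the 4 controls for 18 of the 36. In knockouts 16 of the 36 rose with the high-fat diet at an adjusted p under 0.05 and 0 fell, and in controls 0 changed. Over all 14351 genes tested the diet effect passed for 10.6% in knockouts, 748 up and 768 down, and for 1.83% in controls. The diet counts of the lists below use the same threshold and are to be read against those shares. Per liver, the mean log2 CPM of the list was 4.02, 3.30, 3.68 and 3.29 in chow controls and 3.29, 3.33, 3.54 and 3.43 in chow knockouts. It was 2.91, 3.46, 3.75 and 3.67 in high-fat controls and 3.99, 4.39, 4.44 and 4.33 in high-fat knockouts. The high-fat knockouts were the highest group, above every high-fat control, and chow control 1 reached the level of the lowest of them. The list had a median GC content of 49.9%, and its median interaction was 0.93 under the length and GC offsets, 1.07 with the unspliced share as a covariate and 1.01 without high-fat control 3.

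Guanylate-binding proteins and immunity-related GTPases, which attack the membranes around intracellular microbes and are induced by interferon gamma, had the highest median of the lists described. Of 18 tested genes 17 were positive, 11 of them at an unadjusted p under 0.05 (7 without chow control 1 or high-fat knockout 3), with a median of 1.28 (1.24 under the offsets) and a median GC content of 43.6%. Gbp10 had 14.9, 4.34, 7.24 and 6.81 CPM in chow controls and 7.51, 4.8, 8.64 and 5.12 in chow knockouts. It had 2.78, 5.92, 7.38 and 8.5 CPM in high-fat controls and 15.4, 16.8, 36.8 and 23.6 in high-fat knockouts, which lay above them (interaction 2.26, SE 0.53). Gbp3 had 6.31, 8.41, 12.4 and 11.8 CPM in high-fat controls and 13.8, 23, 24.6 and 24.3 in high-fat knockouts (interaction 1.27, SE 0.35). Tgtp1, another GTPase of the list, had 1.36, 1.15, 2.98 and 3 CPM in high-fat controls and 2.7, 3.5, 14.4 and 2.4 in high-fat knockouts, where replicate 3 alone was high. Its interaction of 2.997 had an SE of 0.84 and was 1.98 without that liver. Several of these genes have near-identical neighbours, and the sources used here do not say how reads matching more than 1 of them were counted.

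Interferon-stimulated promoters often carry a short element to which the factors ISGF3 and IRF bind. The core searched was GAAA, any 2 bases, GAAA on either strand, in RefSeq windows of 300 bases (250 before and 50 after the gene start, GRCm38.p6). It was present in 3.44% of 32851 windows and in 3.83% of the 10359 tested genes with a window. Of the interferon response list 14 of 26 genes with a window held it (53.9%), and all 10 guanylate-binding and immunity-related GTPase genes with a window did. By comparison it was found in 2 of 16 antigen presentation genes and 0 of 19 fatty acid synthesis genes. Whether Uba7, Oasl1, Rnf213 and Csf1 have windows with these letters is not given here. Windows of 3 genes with high interaction values are shown 5′ to 3′ on the gene's strand to let the element be seen in place, with each match in capitals. Gbp3 lies on the plus strand (chr3:142559794-142560093) and holds 2 overlapping matches that start 45 and 39 bases before the gene start, read as the reverse complement. A second annotated start of Gbp3 has a window (chr3:142560106-142560405) with 0 matches. Tgtp1 lies on the minus strand (chr11:48992197-48992496) with a match 77 bases before the start. Oas3, an oligoadenylate synthetase, lies on the minus strand (chr5:120777610-120777909) with a match 75 bases before the start.
Gbp3: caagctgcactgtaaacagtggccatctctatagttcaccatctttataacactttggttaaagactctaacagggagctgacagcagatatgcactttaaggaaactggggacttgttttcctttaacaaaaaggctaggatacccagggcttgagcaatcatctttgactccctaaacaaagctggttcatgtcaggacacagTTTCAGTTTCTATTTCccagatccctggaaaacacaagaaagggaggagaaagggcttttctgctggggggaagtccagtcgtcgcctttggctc
Tgtp1: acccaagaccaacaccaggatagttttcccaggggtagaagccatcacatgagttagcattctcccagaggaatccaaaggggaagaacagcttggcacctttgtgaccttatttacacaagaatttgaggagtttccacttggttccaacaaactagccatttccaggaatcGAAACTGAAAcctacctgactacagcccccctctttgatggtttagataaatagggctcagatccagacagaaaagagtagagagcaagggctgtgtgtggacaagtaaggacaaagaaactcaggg
Oas3: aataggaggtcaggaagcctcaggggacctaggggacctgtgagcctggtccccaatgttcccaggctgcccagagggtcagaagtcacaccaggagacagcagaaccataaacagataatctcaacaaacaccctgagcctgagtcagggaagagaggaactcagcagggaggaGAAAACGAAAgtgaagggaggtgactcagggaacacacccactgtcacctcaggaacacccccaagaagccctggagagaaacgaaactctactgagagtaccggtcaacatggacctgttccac
Oas3 had 0.61, 1.85, 1.49 and 2 CPM in high-fat controls and 3.74, 4.68, 4.74 and 2.93 in high-fat knockouts, without overlap, against 4.43, 1.22, 3.44 and 1.94 and 1.56, 1.95, 1.69 and 1.64 on chow (interaction 2.10, SE 0.53). A match is a description of letters, and binding was not measured.

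Antigen presentation genes, which load peptides onto MHC molecules, had a median of 0.70 over 21 genes, with 20 positive and 12 of those at an unadjusted p under 0.05. Tapbp, the tapasin that tethers MHC class I to the peptide transporter, had 98.8, 96, 107 and 101 CPM in chow controls and 90.3, 62.7, 84.6 and 79.4 in chow knockouts. It had 64.9, 69, 71.6 and 71.8 CPM in high-fat controls and 81.9, 86.6, 105 and 87.2 in high-fat knockouts, so the order flipped without overlap (interaction 0.72, SE 0.17). The controls fell with the high-fat diet (-0.54, edgeR adjusted p = 0.0305) and the knockouts had 0.19. Tap1, a subunit of that transporter, had an interaction of 1.08. The list's median GC content was high, at 54.5%, and its median interaction was 0.47 under the offsets.

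Lists of inflammation outside the interferon genes pointed the same way with more spread. NF-kB targets and chemokines had a median of 0.71 over 29 genes, 26 positive and 13 of them at an unadjusted p under 0.05 (8 without high-fat knockout 1). Under the offsets the median was 0.42. Cxcl1, which attracts neutrophils, had 3.19, 3.57, 4.4 and 2.6 CPM in high-fat controls and 7.23, 7.61, 5.97 and 5.13 in high-fat knockouts, above them, and 2.73, 1.9, 1.75 and 0.888 in chow knockouts (interaction 1.67, SE 0.46). Nfkb1, a subunit of the factor itself, had an interaction of 0.63, with groups that overlapped on both diets. The acute phase list, plasma proteins that hepatocytes secrete in inflammation, had a median of only 0.14 over 31 genes with 20 positive, and leaving out single livers moved it between -0.03 and 0.28. Within it Orm2 had 7.46, 6.05, 11.2 and 12.6 CPM in high-fat controls and 56, 22, 17.9 and 9.06 in high-fat knockouts (interaction 2.83, SE 0.65), and Saa3 had an interaction of 1.96. In both genes the high-fat groups overlapped.

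Macrophage markers were measured at very different levels, from 69.7 to 201.8 CPM for Clec4f of Kupffer cells down to low values for Gpnmb and Trem2. The 8 markers of recruited macrophages had a median interaction of 0.92 (0.54 without high-fat knockout 1) with 8 positive and 2 at an unadjusted p under 0.05. With the high-fat diet 5 of the 8 passed as risen in knockouts and 0 in controls. The median diet effect was nevertheless positive in both, at 0.81 in controls and 1.80 in knockouts. Gpnmb, a marker of lipid-laden macrophages, had 28.5, 8.33, 1.76 and 0.932 CPM in high-fat knockouts and 1.02, 0.318, 0.609 and 0.7 in high-fat controls, so 2 of the 4 knockouts set its value (interaction 3.39, SE 1.46, and 1.97 without high-fat knockout 1). Trem2, a lipid-sensing receptor, had 7.59, 5.45, 1.49 and 1.46 CPM in high-fat knockouts, with the same 2 livers high. The summed level of the 8 markers was 83.3 to 270.7 CPM in high-fat controls and 103.6 to 282.7 in high-fat knockouts, so the sums overlapped widely. Kupffer cell markers, the resident macrophages, had a median of 0.52 (0.12 without chow control 3) over 8 genes, 8 positive and 1 at an unadjusted p under 0.05, and summed to 278.3 to 666.9 and 323.2 to 624.8 CPM in those groups. T, B and NK cell markers summed to 2.37 to 6.44 and 3.65 to 15.1 CPM. The part of these cells in the interferon and antigen presentation values was not tested.

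The collagen and matrix list had 47 tested genes, of which 45 were positive and 21 positive at an unadjusted p under 0.05, with 0 negative at that level. Its median was 0.67, made of a knockout effect of 0.01 on chow and 0.58 on the high-fat diet. The knockouts lay above the controls for 18 of the 47 on the high-fat diet. With the high-fat diet 16 of the 47 rose in knockouts and 0 changed in controls. The mean log2 CPM of the list was 3.43 to 3.73 in high-fat controls and 3.91 to 4.51 in high-fat knockouts, without overlap. The median was 0.39 under the offsets, with 10 positive at an unadjusted p under 0.05, and 0.90 with library totals only. Stellate cell markers, the cells that make most liver collagen, summed to 421.6 to 640.8 CPM in high-fat controls and 500.3 to 589.6 in high-fat knockouts. Their median interaction was 0.17, but 0.044 without high-fat control 2 and 0.48 without high-fat control 3.

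**Figure D4:**
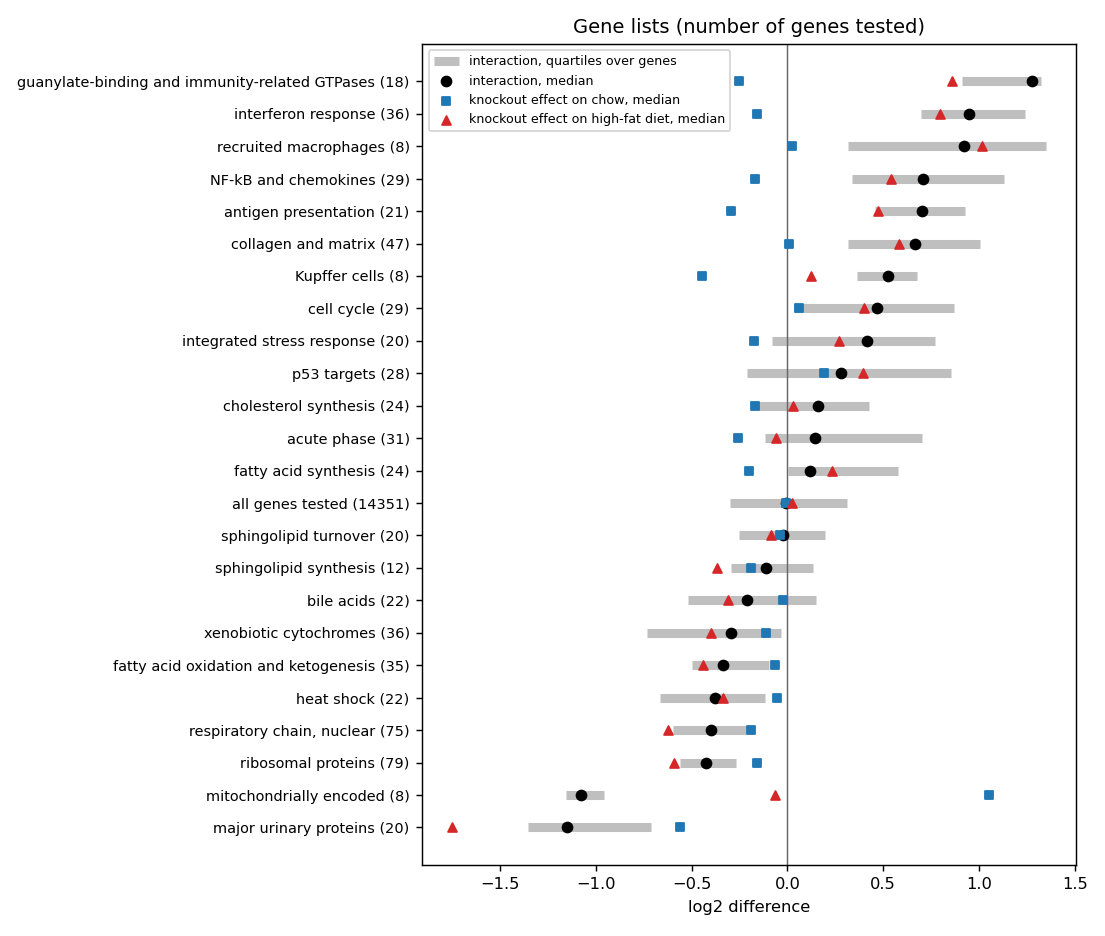
Grey bars span the quartiles of the interaction over the tested genes of each list, black circles mark the median, blue squares the median knockout effect on chow and red triangles that on the high-fat diet, all as log2 differences. Immune and matrix lists lie at the top with medians from 0.52 to 1.28, and mitochondrially encoded genes and major urinary proteins lie at the bottom near -1.08 and -1.15.

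Genes of growth arrest, stress and division were mixed. The p53 target list had a median of 0.28 over 28 genes, with 6 positive (3 without chow control 1) and 2 negative at an unadjusted p under 0.05. Phlda3, a p53 target that restrains Akt, was low everywhere but in high-fat knockouts, which had 3.07, 4.73, 4.1 and 6.73 CPM against 0.746, 0.764, 1.15 and 0.8 in high-fat controls; it rose there by 2.42 on the log2 scale (edgeR adjusted p = 0.0129). Chow values were 1.18, 1.07, 0.873 and 0.812 and 0.683, 0.711, 0.665 and 1.91, and the interaction was 2.39 (SE 0.53). The integrated stress response list, genes induced when protein synthesis is throttled, had a median of 0.42 over 20 genes, but 0.20 without chow control 1 and 0.04 when a minimum count of 50 was required. Gdf15, a stress hormone that curbs appetite, had 4.75, 7.2, 3.86 and 3.95 CPM in high-fat controls and 15.5, 27.9, 16.3 and 5.99 in high-fat knockouts (interaction 1.86, SE 0.51), with 1 knockout inside the control range. Asns, which makes asparagine, had 3.11, 4.11, 4.21 and 8.25 CPM in chow controls and 0.339, 0.191, 0.609 and 0.5 in high-fat controls, a fall of 3.56 on the log2 scale (edgeR adjusted p = 0.00752), and its interaction of 1.95 had an SE of 0.83 and was 0.72 without high-fat knockout 1. Cell cycle genes had a median of 0.47 over 29 genes, which was 0.83 without high-fat control 3. Mki67, the marker of dividing cells, had 1.63, 4.46, 2.91 and 3.5 CPM in high-fat controls and 10.1, 10.7, 10.1 and 6.73 in high-fat knockouts, without overlap (interaction 1.48, SE 0.47).

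Genes of sphingolipid synthesis, the pathway of the deleted enzyme, had small interactions. Of 12 tested genes 4 were positive, the median was -0.11 (-0.21 to -0.063 with single livers left out), and 2 were negative at an unadjusted p under 0.05. Ormdl1, an inhibitor of the first enzyme of the pathway, had 18.8, 22.2, 59 and 27.2 CPM in high-fat controls, of which replicate 3 was the high one, and 17, 12.4, 15.9 and 17.5 in high-fat knockouts (interaction -1.04, SE 0.38, and -0.56 without that liver). Sptssa, the small subunit that activates the same enzyme, had 23.3, 23.8, 58.2 and 28.9 CPM in high-fat controls with the same high liver and 23.7, 17.9, 20.1 and 24 in high-fat knockouts (interaction -0.77, SE 0.34, and -0.37 without it). Cers6, the ceramide synthase for palmitoyl chains, had an interaction of 0.61 (SE 0.30), with overlap on both diets. Sphingolipid turnover genes had a median of -0.02 over 20 (-0.084 to 0.05 with single livers left out), with 2 positive and 2 negative at an unadjusted p under 0.05. Col4a3bp, which carries ceramide from the endoplasmic reticulum to the Golgi, had 52.8, 45.7, 39.6 and 49.6 and 57.1, 55.7, 60.3 and 54.2 CPM on chow and 52.9, 55.4, 51.2 and 50.3 and 49.2, 44.1, 39.2 and 45.8 on the high-fat diet in controls and knockouts. Its order flipped without overlap (interaction -0.51, SE 0.16). Sgpp1, a sphingosine-1-phosphate phosphatase, had -0.59 and Smpd3, a neutral sphingomyelinase, had 1.75 with an SE of 0.69.

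In fat metabolism the clearest single value was Srebf1 (chr11:60199089-60222581), the transcription factor that drives fatty acid synthesis under insulin. Chow controls had 295, 568, 691 and 408 CPM and chow knockouts 139, 128, 159.7 and 188, and the knockouts fell by 1.67 on the log2 scale (edgeR adjusted p = 0.0123). High-fat controls had 355, 639, 373 and 548 CPM and high-fat knockouts 462, 434, 367 and 395, with overlap and a difference of -0.21. The interaction was 1.47 (SE 0.33, edgeR adjusted p = 0.211), and in knockouts Srebf1 rose from chow to high-fat diet by 1.43 (edgeR adjusted p = 0.00309). The fatty acid synthesis list as a whole had a median of 0.12 over 24 genes, with 18 positive and 4 of them at an unadjusted p under 0.05. That median was 0.036 without high-fat knockout 4, 0.36 without high-fat control 3 and -0.049 under the length and GC offsets. Scd2, a desaturase, had an interaction of 1.01. Acacb, the carboxylase that makes malonyl-CoA at mitochondria, had 266, 248, 168 and 291 CPM in chow controls and fell to 43.6, 66.6, 64.4 and 46.1 in high-fat controls (-2.14, edgeR adjusted p = 0.00493), while knockouts had 112, 265, 253 and 306 and 117, 159, 54 and 161 (interaction 1.21, SE 0.44). Among storage genes, Lipe, the hormone-sensitive lipase, had 1.15 (SE 0.43) and G0s2, an inhibitor of fat breakdown, had -1.72 (SE 0.65). Cholesterol synthesis genes had a median of 0.16 over 24, which leaving out single livers moved between -0.13 and 0.34. Of sterol-regulated genes, Insig1 had 0.78.

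Fatty acid oxidation and ketogenesis genes leaned the other way. Of 35 genes 28 were negative, with a median of -0.33, 6 negative and 1 positive at an unadjusted p under 0.05, and knockouts below controls for 10 on the high-fat diet. Without high-fat control 3 the median was -0.14. The count of 6 was 2 to 12 with single livers left out, lowest without chow control 2 and highest without high-fat control 1. Slc25a20, the carnitine carrier of the inner mitochondrial membrane, had 121, 124, 239.6 and 138 CPM in high-fat controls, with replicate 3 far above the rest, and 109, 94, 86.3 and 105 in high-fat knockouts (interaction -0.65, SE 0.26, and -0.36 without that liver). Etfdh, which passes electrons from fat oxidation to the respiratory chain, had -0.51. Ucp2, the 1 positive gene of the list at an unadjusted p under 0.05, had 13.2, 16, 11.4 and 12.6 CPM in high-fat controls and 23.7, 27.3, 27.6 and 19.3 in high-fat knockouts and rose with the diet in knockouts by 1.06 (edgeR adjusted p = 0.00367). It is also expressed in macrophages. The separate fatty acid uptake list had a median of -0.21 over 16 genes, 10 of them negative, and -0.31 to 0.066 with single livers left out. Its lowest member was Acsl1, which activates long-chain fatty acids, with -0.60 (SE 0.20). Its chow knockouts lay above the chow controls, with overlap on the high-fat diet.

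Among other hepatocyte programmes, bile acid genes had a median of -0.21 over 22, with 4 negative at an unadjusted p under 0.05. Slco1b2, a bile acid uptake transporter, had 1788, 2072, 3711 and 2334 CPM in high-fat controls and 1437, 1311, 1529 and 1539 in high-fat knockouts, below them (interaction -1.01, SE 0.28). Baat, which conjugates bile acids, had -0.64 and Akr1d1, a steroid reductase of their synthesis, had -0.99; for both, high-fat control 3 was the highest liver, and without it Baat had -0.42. Xenobiotic cytochromes had a median of -0.29 over 36, which was -0.16 without chow knockout 1 and -0.01 without both high-fat control 3 and chow knockout 1. Lists of gluconeogenesis and fasting, of glycolysis and sugar handling, and of insulin signalling had medians of 0.037, 0.064 and 0.079. With single livers left out these ranged from -0.15 to 0.17, from -0.05 to 0.17 and from -0.0072 to 0.12. Within these lists G6pc, the last enzyme of glucose release, had 216, 756, 815 and 1428 CPM in chow knockouts and 203, 141, 91.7 and 64.9 in high-fat knockouts, where it fell by 2.68 on the log2 scale (edgeR adjusted p = 0.00906). Its controls had 1103, 653, 374 and 473 and 492, 318, 160.2 and 978, and the interaction of -2.27 had an SE of 0.76. Irs2, an adaptor of the insulin receptor, had an interaction of 1.37 (SE 0.47). Ghr, the growth hormone receptor, had 763, 760.5, 807 and 770.2 and 875, 806, 882 and 872 CPM on chow and 713, 813, 858 and 756 and 599, 589, 670.4 and 701 on the high-fat diet in controls and knockouts (interaction -0.44, SE 0.16).

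Major urinary proteins, pheromone carriers that the liver secretes under growth hormone, had a median interaction of -1.15 over 20 genes with 18 negative. The median knockout effect was negative on both diets, at -0.56 on chow and -1.75 on the high-fat diet, and the interaction reflects the lower value on the latter. There, knockouts lay below controls for 15 of the 20. At an unadjusted p under 0.05, 5 were negative, a count that was 11 without chow control 3, 8 without high-fat knockout 3 and 3 without chow control 4, high-fat control 2 or high-fat knockout 2. Mup11 had 275, 270.4, 441 and 178 CPM in chow controls and 164, 187, 173 and 159.9 in chow knockouts. It had 315, 310.2, 185 and 206 CPM in high-fat controls and 20.6, 42, 113 and 53.5 in high-fat knockouts, far below them (interaction -1.38, SE 0.51). Mup3 had -0.99. These genes are near-identical copies of one another, so reads may have been shared among them and the members are not separate measurements. Heat shock genes had a median of -0.38 over 22 with 19 negative, and the median was -0.15 without chow knockout 2. Hspa8, the constitutive Hsp70 chaperone, had 589.6, 719, 887 and 549 CPM in high-fat controls and 523, 368, 419.6 and 437 in high-fat knockouts (interaction -0.91, SE 0.32, and -0.59 without chow knockout 2), and Dnaja1, its partner, had -0.89. Chaperones of the endoplasmic reticulum, a separate list, had a median of only -0.05 over 30 genes. Of these 12 were positive and 18 negative, 1 of them at an unadjusted p under 0.05. The lowest was Dnajb9, a partner of the Hsp70 of that compartment, with -1.12.

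Transcripts of mitochondrial DNA differed from nuclear respiratory genes in where the interaction arose. All 8 tested mitochondrially encoded genes were negative, 5 at an unadjusted p under 0.05 (3 to 8 with single livers left out), with a median of -1.08. The median knockout effect was 1.05 on chow and -0.06 on the high-fat diet, so the difference lay in the chow comparison. The list levels of chow knockouts were 8.53 to 9.68 mean log2 CPM, against 7.24 to 8.21 for controls on the same diet. On the high-fat diet the levels were 7.48 to 8.61 for controls and 7.91 to 8.23 for knockouts. mt-Co1, a subunit of cytochrome oxidase, had 12778, 7344, 6069 and 9741 CPM in chow controls and 20676, 13074, 14046 and 13513 in chow knockouts, above them (interaction -0.89, SE 0.31). mt-Nd6, the gene on the light strand, had 63.9, 29.1, 230.4 and 32.3 CPM in chow knockouts, with replicate 3 the highest, and 19, 17.7, 9.29 and 14.9 in chow controls (interaction -2.70, SE 0.70, and -1.61 without that liver). These genes have a low GC content, with a median of 36.4%, and the list's median was -0.68 under the offsets and -0.69 without chow knockout 1.

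Nuclear genes of the respiratory chain were negative for 74 of 75, with a median of -0.40, and ribosomal protein genes for 77 of 79, with -0.42. The knockouts lay below the controls on the high-fat diet for 60 of the 75 and for 32 of the 79. On chow they lay below them for 12 of the 75 and 1 of the 79, against 2.9% of all genes. The median knockout effects were already negative on chow, at -0.19 and -0.16, and were -0.62 and -0.59 on the high-fat diet. High-fat control 3 carried much of the interaction of both lists. Its list levels were 7.37 mean log2 CPM for the respiratory chain, against 6.38 to 6.57 in the other high-fat controls, and 6.86 for ribosomal proteins, against 5.73 to 6.08. High-fat knockouts had 6.09 to 6.28 and 5.60 to 5.68. Without that liver the medians were -0.12 and -0.08. Ndufb4, a complex I subunit, had 15.7, 15.8, 42.6 and 18.5 CPM in high-fat controls and 13, 12.2, 11.9 and 14 in high-fat knockouts (interaction -0.99, SE 0.36, and -0.51 without high-fat control 3), and Rpl36a, a large-subunit protein, had -0.83. With the high-fat diet 41 of the 79 ribosomal protein genes fell in knockouts and 3 in controls, with high-fat control 3 included. Chow controls had ribosomal list levels of 6.41 to 6.49, so the other high-fat controls, at 5.73 to 6.08, also lay below them. Over all genes, leaving out high-fat control 3 raised the diet calls from 262 to 955 in controls and from 1516 to 2914 in knockouts. Adding the unspliced share to the fit as a covariate gave medians of -0.23 and -0.19.

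**Figure D5:**
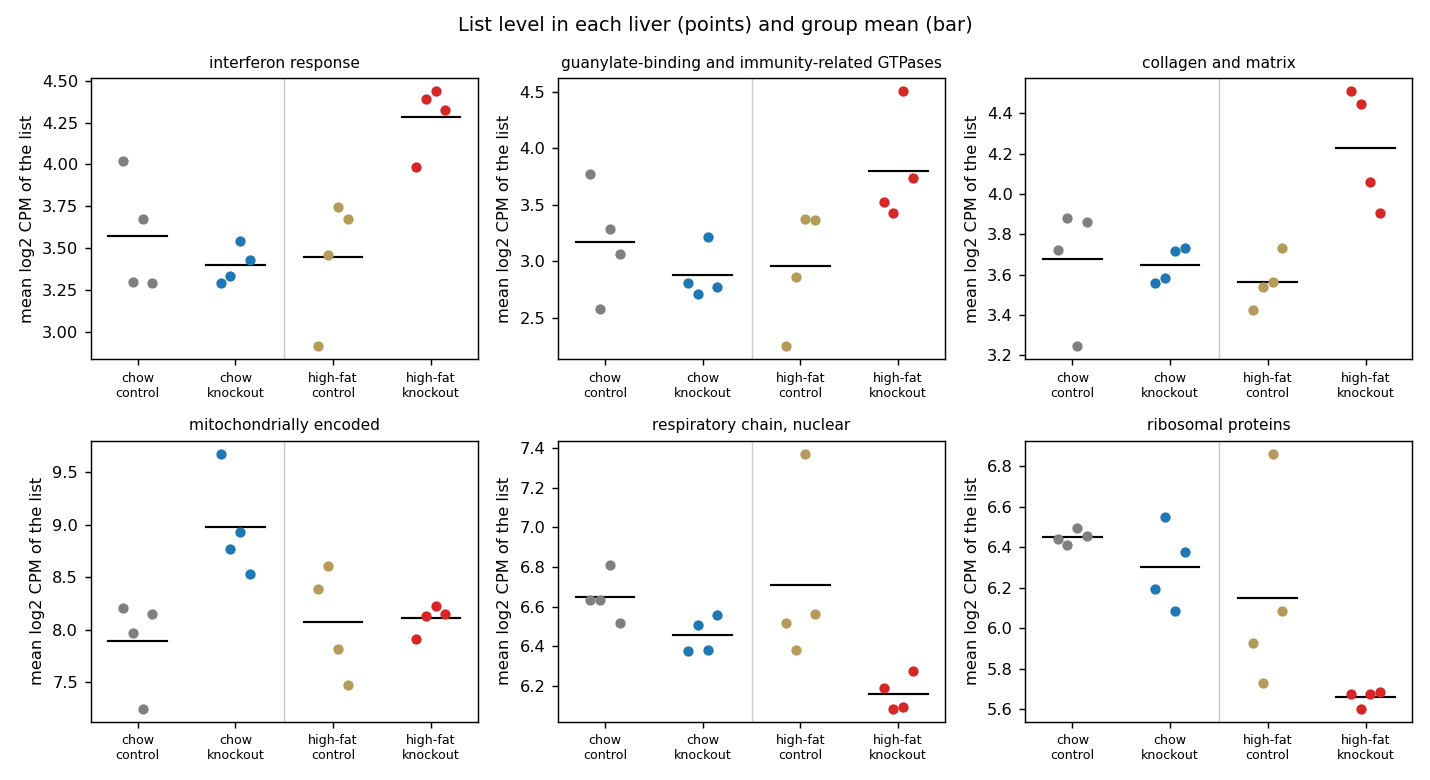
Each panel plots the mean log2 CPM of 1 gene list in each of the 16 livers as points, with the group mean as a bar; the y axes do not start at 0. The high-fat knockouts stand above the high-fat controls for the interferon, GTPase and collagen lists, the chow knockouts stand above the chow controls for mitochondrially encoded genes, and 1 high-fat control lies above all others for the respiratory chain and ribosomal lists.

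A further 26 lists with at least 3 tested genes, some of them already described above, had medians from -0.36 for erythroid markers to 0.95 for a list led by Adgrf1, Prss8 and Tgm1 that was drawn from earlier results on these livers. They held 487 list entries, of which 24 were positive and 29 negative at an unadjusted p under 0.05, close to the 5.37% and 5.89% of all genes. Single lists were less even in sign: 27 of 31 proteasome genes were negative and 13 of 18 lipid droplet and fat storage genes positive. On 2 more lists fewer than 3 genes were tested, and on 1, pancreas, none.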

How the data were processed

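The 16 libraries were made from ribosome-depleted total RNA with a stranded kit, per the labels' protocols. The authors deposited raw gene counts, aligned with STAR 2.5.4a to GRCm38 and counted with featureCounts 1.5.1, per the submitters' processing notes. The sources used here do not give the strand setting or the treatment of reads matching several genes. Each column was matched to its sample by the sample id in the labels, and the group was read from the title. Symbols were found for 53620 of 53801 gene identifiers, and positions in GENCODE M21 for 53706.

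Counts were filtered with filterByExpr (minimum count 10), scaled by TMM and fitted in edgeR 4.0.16 (R 4.3.3) with 1 term per group over all 16 livers, so the spread was shared. The interaction and the simple effects were contrasts of that fit, adjusted by Benjamini-Hochberg over all tested genes at 0.05. Standard errors are the estimate divided by the root of the quasi-likelihood F. Fold values are log2 and levels are CPM. The procedure was first tested on simulated data. Replicates are separate animals by their numbers, and no 2 libraries of a group agreed within sampling noise. Named genes were Degs1, then the 12 genes in each direction with the smallest interaction p among genes with names and a mean level of 2 or more in log2 CPM, then up to 3 leading members of each list. The contrast, the lists and the alternatives were chosen with earlier results of these data known. Lists were described by counts and medians, with no set test, and no p was adjusted over a list alone. Alternatives were DESeq2 1.42.0, limma 3.58.1 (voom, with and without quality weights), other scalings, filters and thresholds, an unspliced-share covariate, length and GC offsets, and leaving out livers.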

Additional observations from a re-analysis of the deposited data

Results flagged for a closer look

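A value was singled out when the highest or lowest of 4 livers lay far from the other 3, by Dixon's 95% critical value for the gap over the range. Of 436 groups of 4 examined, 29 were singled out, and chance alone gives about 1 in 20. High-fat control 3 accounted for 6 and chow knockout 1 for 4.

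In high-fat control 3 the high values were Sptssa at 58.2 CPM (others 23.3 to 28.9), Slc25a20 at 239.6 CPM (121.4 to 137.9), Baat at 575 CPM, Akr1d1 at 535 CPM, Phlda3 at 1.15 CPM and Ndufb4 at 42.6 CPM. In chow knockout 1 they were Arhgap5 at 264.5 CPM (226.1 to 228.1), Irs2 at 43.8 CPM and mt-Co1 at 20676 CPM, while its cell cycle list was low at 0.72 mean log2 CPM (1.25 to 1.36). Chow knockout 3 had the low cholesterol synthesis list, at 6.72 mean log2 CPM, and the high number of genes with counts, 31083.

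Among chow controls, replicate 3 was high for G0s2 at 104 CPM and Hspa8 at 819 CPM. Replicate 4 was high for Akr1d1 at 273 CPM and Psat1, an enzyme of serine synthesis, at 3.79 CPM, and low for Baat at 270.1 CPM. Chow knockout 2 was low for Ghr at 806 CPM, and chow knockout 4 was high for Phlda3 at 1.91 CPM. High-fat control 4 was high for Cd14, a receptor for bacterial lipopolysaccharide, at 3.25 CPM.

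High-fat knockout 1 was high for Igsf8 at 10.6 CPM and low for Gbp3 at 13.8 CPM (others 22.99 to 24.6). High-fat knockout 2 was high for Cygb at 9.93 CPM and for the unspliced share at 0.191%, and low for the ribosomal list at 5.60 mean log2 CPM. High-fat knockout 3 was high for Tgtp1 at 14.4 CPM (2.40 to 3.50) and Tap1 at 62.3 CPM (42.0 to 43.9). High-fat knockout 4 was low for Mki67 at 6.73 CPM and high for mt-Co1 at 13289 CPM.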

How the results depend on the processing

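No paired analysis was possible because each liver has its own animal number and no number is shared between groups. The count of genes called for the interaction was 0 by edgeR, 71 by DESeq2, 9 by limma-voom with quality weights and 259 with no filter on low counts, where 36204 genes were tested. Leaving out single livers gave 0 to 1, the 1 being Slc35g1 without chow control 2 (edgeR adjusted p = 0.0124) or Col1a1 without high-fat knockout 4. Calls for the knockout effect, 2 on chow and 16 on the high-fat diet, were 43 and 579 by DESeq2 and 308 and 964 with no filter; on the high-fat diet they were 100 with library totals only, 34 with upper-quartile scaling, 32 at a minimum count of 50 and 10 with the offsets. Calls for the diet effect, 262 in controls and 1516 in knockouts, were 723 and 2093 by DESeq2, 992 and 1895 with no filter, 380 and 3320 with library totals only, 321 and 2844 with the offsets, and 1219 and 3273 without both high-fat control 3 and chow knockout 1. The Degs1 interaction changed sign with library totals only (0.18), quality weights (0.078), the unspliced-share covariate (0.039) and without both high-fat control 3 and chow knockout 1 (0.14). Leaving out single livers gave -0.25 to 0.12. No other named gene changed sign. With library totals only, list medians were 0.12 for sphingolipid synthesis, 0.20 for sphingolipid turnover, -0.064 for fatty acid oxidation, 0.016 for bile acids, 0.49 for p53 targets, 0.66 for the integrated stress response, 0.90 for collagen and matrix and -0.14 for the respiratory chain. Without both of those livers they were -0.064 for fatty acid oxidation, -0.12 for bile acids, -0.011 for xenobiotic cytochromes, -0.15 for the respiratory chain and -0.15 for ribosomal proteins. With length and GC offsets they were 0.14 for p53 targets, 0.22 for the integrated stress response, 0.39 for collagen and matrix and 0.42 for NF-kB targets. The integrated stress response had 0.042 at a minimum count of 50, cell cycle 0.80 with the covariate and ribosomal proteins -0.10 with quality weights. Leaving out single livers gave ranges of -0.31 to -0.16 for bile acids, 0.20 to 0.52 for the integrated stress response, 0.30 to 0.83 for cell cycle, -0.53 to -0.12 for the respiratory chain and -0.59 to -0.082 for ribosomal proteins. The interferon median stayed between 0.75 and 1.203 over all alternatives run. The cause of these shifts was not tested. With 4 livers a group and a common biological coefficient of variation of 0.247, low genes such as Gpnmb (SE 1.46) were the least bounded.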
